A study of Mus musculus with 7 samples.

Results

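Imprinted genes are expressed mainly from the copy inherited from one parent, and the 45 genes described here were chosen by name as members of known mouse imprinted clusters or single imprinted loci. All 45 symbols were found among the 55484 genes of the count table, and 42 of them passed the filter on low counts and were tested together with 16580 genes in all. RNA was counted in 4 libraries of mouse embryonic fibroblasts (MEFs) and 3 libraries of mouse embryonic stem cells (mESCs), both on a C57/Bl6 background and with no treatment given. Neither passage nor sex is given for either cell type, and the labels do not say whether libraries of one cell type came from separate cultures or embryos, so p-values measure only the spread between these libraries. The study calls its transcriptional samples biological replicates but counts fewer MEF samples than there are MEF libraries here, and how the libraries relate to those samples is not given in the sources used here. The text on RNA extraction in the labels speaks of blood stem cells, whereas the source and cell type labels name fibroblasts and embryonic stem cells.

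At most imprinted loci a differentially methylated control region marks the maternal or the paternal chromosome in the germ line, and this mark survives the wave of demethylation after fertilisation. Most imprinted genes lie in clusters in which protein-coding genes of one parental copy neighbour long non-coding RNAs of the other. Many of them act on growth of the embryo and placenta, and several are abundant in embryonic mesenchyme, the tissue from which MEFs are derived. The counts do not separate the parental copies, so every value below is the sum of both copies.

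Libraries are called by letter in falling order of their total counts, which ran from 11441278 in MEF library A to 6528643 in MEF library D, and from 8193825 to 7462710 in mESC libraries A to C. Levels are counts per 1000000 (CPM) over library sizes scaled by TMM, a scaling that balances the bulk of genes between libraries. A floor of 3 counts in a library equalled 0.288 to 0.477 CPM, and floors cover counting error only. All 12 fibroblast markers fell in mESCs, from summed levels of 23440 to 40180 CPM to 169 to 199 CPM. All 10 pluripotency markers rose, from 42.9 to 47.3 CPM in MEFs to 3372 to 3640 CPM in mESCs. Of 7 neural markers 4 rose and 2 fell, with summed levels of 174.5 to 216 CPM in MEFs and 675 to 745 CPM in mESCs. Most of the neural sum in mESCs was Stmn2, at 576, 654 and 644 CPM, against 53.9 to 81.3 CPM in MEFs. Sox1, Elavl3 and Neurod1 rose too, Tubb3 and Map2 fell and Pax6 did not pass the test. Only 2 of 7 trophoblast markers could be tested (1 rose and 1 fell) and 1 of 6 primitive endoderm markers, which did not pass the test. The Y-linked genes Ddx3y, Eif2s3y and Kdm5d together stood at 2.11, 90.6, 0.610 and 88.4 CPM in MEF libraries A to D and at 1.73, 1.82 and 35.9 CPM in mESC libraries A to C. MEF libraries B and D and mESC library C thus stood apart from the others of their cell type in the sum of these 3 genes. The further Y-linked gene Uty did not divide the MEF libraries in this way, at 13.6, 9.95, 12.2 and 16.2 CPM in MEFs and 8.24, 7.84 and 16.2 CPM in mESCs. Xist, the RNA of the inactive X chromosome, was at 73.8, 44.8, 43.3 and 46.4 CPM in MEFs and 12.7, 12.3 and 14.6 CPM in mESCs, so that MEF library C was close to B and D rather than to A. With the remaining libraries only, MEF A and C against mESC A and B, 6 imprinted genes were called higher and 22 lower in mESCs, where 18.3% and 20.5% of all 16585 genes of that fit were called. This subset of libraries was chosen after seeing the data.

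Most imprinted genes were lower in mESCs than in MEFs. Of the 42 tested, 25 fell, 4 rose (Phlda2, Snrpn, Ascl2 and Zrsr1) and 13 did not pass an adjusted p of 0.05 in edgeR's quasi-likelihood test. Over all genes tested, 25.0% were called lower and 22.8% higher in mESCs, against 59.5% and 9.52% of the imprinted genes. The median log2 fold change of the imprinted genes was -2.23, and that of all genes tested was 0.04. The log2 fold change was more than 1 unit below 0 in 22 of the 25 genes that fell. In 26 imprinted genes every mESC library lay below every MEF library and in 4 every mESC library lay above, where the same held for 26.2% and 25.9% of all genes tested. With library size in place of TMM, calls over all genes moved from 3785 higher and 4153 lower to 5180 higher and 3345 lower, and the median of all genes rose to 0.32. Calls among imprinted genes under that scaling were 5 higher and 22 lower, since Zdbf2 was added and Ube3a, Tssc4 and Inpp5f were lost (adjusted p = 0.228, 0.0890 and 0.0988 in edgeR).

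**Figure D1:**
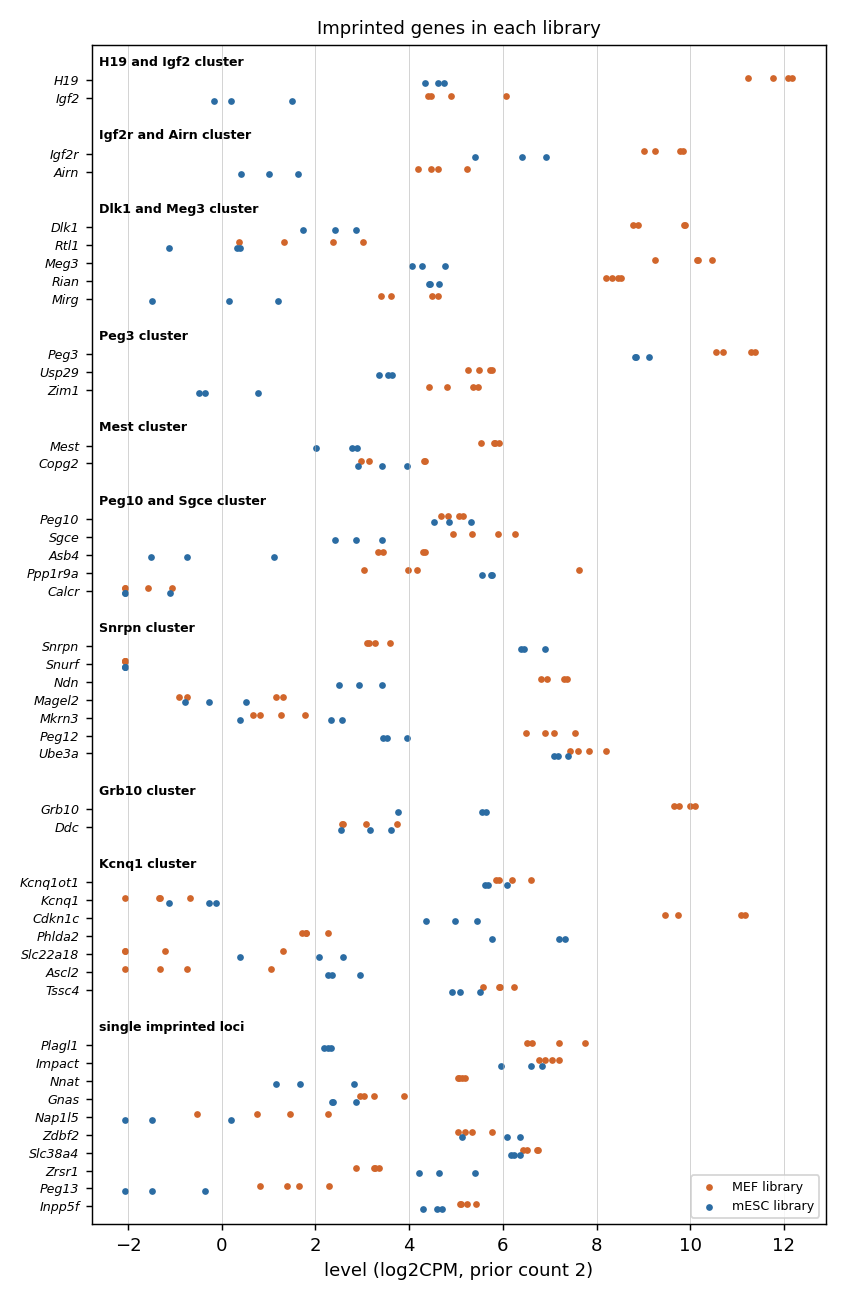
Level of each of the 45 imprinted genes in each library, as log2CPM with a prior count of 2 on the horizontal axis, with 1 orange point for each of 4 MEF libraries and 1 blue point for each of 3 mESC libraries, ordered by imprinted cluster. In the H19 and Igf2, Igf2r and Airn and Peg3 clusters all mESC points lie left of the MEF points, while those of Snrpn, Phlda2, Ascl2 and Zrsr1 lie to the right.

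Together the 45 genes held 1.17% ± 0.299 of all counts in MEFs (SD, n = 4) and 0.183% ± 0.00377 in mESCs (SD, n = 3). H19 alone carried a large part of this in MEFs, since the remaining 44 genes held 0.823% there and 0.180% in mESCs. By the parental copy known to be active, 8 of 11 maternally expressed genes fell (72.7%) and 2 rose (18.2%). Of 23 tested paternally expressed genes, 13 fell (56.5%) and 2 rose (8.70%). Over all genes tested, 25.0% were called lower and 22.8% higher. Members of one cluster, such as Meg3, Rian and Mirg, are not independent of each other, and the 2 classes were not tested against each other. The median log2 fold change was -4.07 for the maternally and -2.37 for the paternally expressed genes. Of 8 tested genes whose imprint is limited to some tissues or transcripts, 4 fell and the other 4 did not pass the test, with a median of -0.62. In bulk samples of this kind, fewer cells of a type and less RNA per cell cannot be told apart.

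H19, a maternally expressed long non-coding RNA that is abundant in embryonic mesoderm (chr7:142575529-142578143, minus strand, GRCm38), had the largest fall of the 42 genes. It stood at 2403, 4622, 3478 and 4328 CPM in MEF libraries A to D and at 26.7, 20.0 and 24.2 CPM in mESC libraries A to C. The mESC mean was 0.637% of the MEF mean, with a log2 fold change of -7.29 (SE 0.28, adjusted p = 2.65e-08). Igf2 (chr7:142650766-142666816, minus strand), the growth factor expressed from the paternal copy of the same locus, fell as well, from 22.0, 66.5, 21.0 and 29.4 CPM in MEFs to 0.650, 0.909 and 2.60 CPM in mESCs. The fitted log2 fold change was -4.65 (SE 0.60, adjusted p = 9.75e-05) and -5.46 without mESC library C. MEF library B had the highest level of both genes, and no mESC library of either gene reached a MEF library. The last 500 exonic bases of Igf2 are shared to 99.4% with Gm49394 on the same strand, a gene with 0 counts in every library. A read there belongs to both genes, and how such reads were counted is not given in the sources used here. The levels of Igf2 may therefore leave out reads from its end.

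Igf2r and Airn, a sense and antisense pair of opposite parental expression, fell together. The receptor Igf2r, which takes up and degrades IGF2, was at 609, 879.9, 920.0 and 519.7 CPM in the MEF libraries and at 85.0, 121 and 42.0 CPM in the mESC libraries. The mean was 8.87-fold higher in MEFs, and the log2 fold change was -3.15 (SE 0.35, adjusted p = 3.77e-05). Airn, the paternally expressed RNA that represses Igf2r in cis, was at 22.0, 24.2, 18.1 and 37.4 CPM in MEFs and 1.08, 2.84 and 1.77 CPM in mESCs. Airn had a log2 fold change of -3.73 (SE 0.40, adjusted p = 2.77e-05), of the same sign as Igf2r. Among the mESC libraries Igf2r was lowest in C and Airn in A, and neither gene overlapped with the MEF libraries.

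All 5 members of the Dlk1 and Meg3 cluster on chromosome 12 fell in mESCs. Dlk1 (chr12:109452823-109463336, plus strand), a membrane protein with EGF-like repeats that is expressed from the paternal copy, was at 475.5, 948, 439 and 930.3 CPM in MEFs and 5.09, 3.07 and 7.08 CPM in mESCs. Its mESC mean was 0.7275% of the MEF mean (log2 fold change -7.10, SE 0.44, adjusted p = 5.27e-07), and MEF libraries B and D lay above A and C. The maternally expressed non-coding RNAs Meg3, Rian and Mirg, hosts of many small RNAs, fell as well. Meg3 (chr12:109541001-109571726, plus strand) was at 1142, 1418, 606 and 1124 CPM in MEFs and 16.5, 26.8 and 19.1 CPM in mESCs, a log2 fold change of -5.69 (SE 0.33, adjusted p = 3.63e-07). Rian had a narrow spread in both cell types, with 321, 349, 295 and 368 CPM in MEFs and 21.5, 21.1 and 24.7 CPM in mESCs. Its log2 fold change of -3.89 (SE 0.16, adjusted p = 3.77e-08) had the lowest standard error of the cluster. Mirg was at 126, 186, 68 and 153 counts in MEFs and 8, 18 and 1 counts in mESCs, so its low mESC level rested on few reads (log2 fold change -4.07, SE 0.65, adjusted p = 0.000427, and -5.06 without mESC library B). Rtl1, a retrotransposon-derived gene needed by placental vessels, was at 11, 65, 15 and 31 counts in MEFs and 2, 9 and 9 in mESCs and its libraries overlapped. Its log2 fold change was -2.37 (SE 0.79, adjusted p = 0.0294), and edgeR's adjusted p was 0.0964, 0.0553 and 0.0522 without mESC library A, B or C. The last 500 exonic bases of Meg3 are shared to 85.2% with Gm26906 on the opposite strand, and the strand setting of the counting is not given in the sources used here.

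Peg3, Usp29 and Zim1 on chromosome 7 all fell in mESCs. Peg3 (chr7:6703892-6730431, minus strand), a paternally expressed zinc finger protein, was at 1493, 2671, 1651 and 2517 CPM in MEFs and 452, 459.8 and 555 CPM in mESCs. This gave a log2 fold change of -2.09 (SE 0.22, adjusted p = 2.15e-05). Usp29 (chr7:6730578-6967219, plus strand), a ubiquitin-specific protease that lies head to head with Peg3, was at 37.9, 54.05, 44.7 and 52.5 CPM in MEFs and 9.97, 11.5 and 12.3 CPM in mESCs. Usp29 had a log2 fold change of -2.07 (SE 0.21, adjusted p = 1.62e-05), and the mESC means of Peg3 and Usp29 were 23.5% and 23.8% of their MEF means. Zim1, a maternally expressed zinc finger gene next to Peg3, was nearly absent from mESCs, with 221, 370, 181 and 258 counts in MEFs and 5, 13 and 4 in mESCs (log2 fold change -5.31, SE 0.46, adjusted p = 6.12e-06, and -6.00 without mESC library B).

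Promoter windows of 250 bases before and 50 bases after each transcription start were read from RefSeq (GRCm38.p6) for 37 of the 45 genes, which had 57 windows. A gene can have several windows, and the one shown is that with the most CpG dinucleotides. They are given for Peg3, whose window shares 263 bases with that of Usp29, for Meg3 and Mest, which fell, and for Snrpn and Phlda2, which rose. Capitals mark TGCCGC, the core motif of the imprint-protecting zinc finger protein ZFP57, on either strand (GCGGCA on the other strand), and TGACGTCA, the palindromic cAMP response element. The windows are chr7:6730370-6730669 (minus strand), chr12:109540746-109541045 (plus strand), chr6:30737800-30738099 (plus strand), chr7:60005150-60005449 (minus strand) and chr7:143502475-143502774 (minus strand).
Peg3: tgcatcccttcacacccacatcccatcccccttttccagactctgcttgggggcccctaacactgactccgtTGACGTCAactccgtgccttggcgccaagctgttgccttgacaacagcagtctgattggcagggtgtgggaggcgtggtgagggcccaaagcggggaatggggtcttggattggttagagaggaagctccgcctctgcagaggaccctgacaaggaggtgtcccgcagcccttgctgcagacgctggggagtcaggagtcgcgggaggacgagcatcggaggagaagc
Meg3: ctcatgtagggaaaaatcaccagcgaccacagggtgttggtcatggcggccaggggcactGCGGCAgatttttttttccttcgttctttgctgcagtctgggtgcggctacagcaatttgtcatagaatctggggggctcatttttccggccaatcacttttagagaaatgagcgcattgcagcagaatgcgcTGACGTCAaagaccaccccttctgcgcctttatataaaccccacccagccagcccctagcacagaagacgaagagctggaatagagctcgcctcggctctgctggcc
Mest: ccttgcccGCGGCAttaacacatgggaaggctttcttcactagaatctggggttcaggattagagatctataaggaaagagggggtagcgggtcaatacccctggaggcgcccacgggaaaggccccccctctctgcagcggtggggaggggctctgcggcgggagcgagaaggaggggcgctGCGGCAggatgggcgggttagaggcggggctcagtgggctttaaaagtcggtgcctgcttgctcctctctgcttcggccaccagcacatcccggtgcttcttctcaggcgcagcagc
Snrpn: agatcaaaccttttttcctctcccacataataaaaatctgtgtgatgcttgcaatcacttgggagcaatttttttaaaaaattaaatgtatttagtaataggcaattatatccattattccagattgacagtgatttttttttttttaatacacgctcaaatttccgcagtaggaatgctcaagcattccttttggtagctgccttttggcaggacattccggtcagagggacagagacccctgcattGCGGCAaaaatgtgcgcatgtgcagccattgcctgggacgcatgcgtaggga
Phlda2: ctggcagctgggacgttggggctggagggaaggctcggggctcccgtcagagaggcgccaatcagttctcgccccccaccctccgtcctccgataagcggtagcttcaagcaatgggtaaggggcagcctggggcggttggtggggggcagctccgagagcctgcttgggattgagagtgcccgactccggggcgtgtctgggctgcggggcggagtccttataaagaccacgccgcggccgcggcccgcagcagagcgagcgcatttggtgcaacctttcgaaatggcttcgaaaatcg

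The Peg3 window shown held 1 TGACGTCA and no TGCCGC, and the Meg3 window shown held 1 of each, while the other Meg3 window held neither and 1 CpG. The Mest window shown held 2 TGCCGC matches, as did a window that starts 3 bases further on, while another Mest window held none. The Snrpn window shown, which is also the window of Snurf, held 1, and the other 3 Snrpn windows held neither motif and 2 to 4 CpG. The Phlda2 window shown held neither motif but had 26 CpG dinucleotides, against 13 each in Peg3 and Meg3, 17 in Mest and 7 in Snrpn. Over the imprinted genes, 14 of 57 windows (24.6%) held TGCCGC, against 11.6% of all 32851 windows of the same length. Windows can overlap, and these 14 are 12 separate stretches of the genome. Of the 13 genes with it, 7 fell (Grb10, Igf2, Meg3, Mest, Nnat, Plagl1 and Zim1), 1 rose (Snrpn), 3 did not pass the test (Copg2, Nap1l5 and Zdbf2) and Calcr and Snurf were not tested. TGACGTCA was in 4 windows (7.02%), those of Meg3, Peg3, Usp29 and Zdbf2, against 1.79% of all windows. Those of Peg3 and Usp29 hold the same site, so the 4 windows hold 3 sites. Both motifs contain a CpG dinucleotide. The imprinted windows held a median of 12 CpG dinucleotides, against 7 over all windows, and the shares were not matched for CpG content. Matches of either motif describe letters in a window, and no binding was measured.

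The Mest cluster was split. Mest, a paternally expressed hydrolase of mesoderm, was at 46.3, 59.8, 57.0 and 55.8 CPM in MEFs and 6.61, 7.16 and 3.775 CPM in mESCs. The log2 fold change was -3.22 (SE 0.26, adjusted p = 3.04e-06), and mESC library C was lowest. Copg2, a coat protein subunit on the opposite strand whose imprint is limited to some tissues, was at 8.63, 19.8, 7.62 and 19.9 CPM in MEFs and 10.4, 7.27 and 15.3 CPM in mESCs, with overlapping libraries (adjusted p = 0.536 in edgeR). The last 500 exonic bases of each gene lie wholly within exons of the other on the opposite strand, so without the strand setting their reads cannot be told apart.

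In the Peg10 and Sgce cluster on chromosome 6 Sgce and Asb4 fell, and Peg10 and Ppp1r9a did not pass the test. Peg10, a retrotransposon-derived gene required in the placenta, was at 28.4, 33.3, 35.1 and 25.3 CPM in MEFs and 39.6, 22.7 and 28.8 CPM in mESCs, with means of 30.5 and 30.4 CPM. Its log2 fold change was -0.01 (SE 0.23, adjusted p = 0.983), and the sign turned with DESeq2's size factors (0.01) and with library size only (0.28). Sgce, the epsilon-sarcoglycan of the membrane that starts next to Peg10 on the other strand, was at 40.4, 59.7, 30.3 and 76.8 CPM in MEFs and 10.5, 7.04 and 5.07 CPM in mESCs. It fell with a log2 fold change of -2.77 (SE 0.37, adjusted p = 0.00013). Asb4, a subunit of ubiquitin ligases, had 202, 89, 132 and 62 counts in MEFs and 1, 17 and 3 in mESCs and fell by 4.21 on the log2 scale (SE 0.70, adjusted p = 0.000561). Without mESC library B, which held most of the mESC counts of Asb4, its log2 fold change was -5.96. Ppp1r9a, the actin-binding protein neurabin, was at 17.75, 198, 7.93 and 15.6 CPM in MEFs and 53.5, 54.3 and 47.0 CPM in mESCs. MEF library B, with 1653 counts, decided its value: over all libraries the log2 fold change was -0.22 (SE 0.89, adjusted p = 0.864), and without MEF library B it was 1.89 with an adjusted p of 6.44e-04. Calcr, the calcitonin receptor, had at most 2 counts in any library and was not tested.

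**Figure D2:**
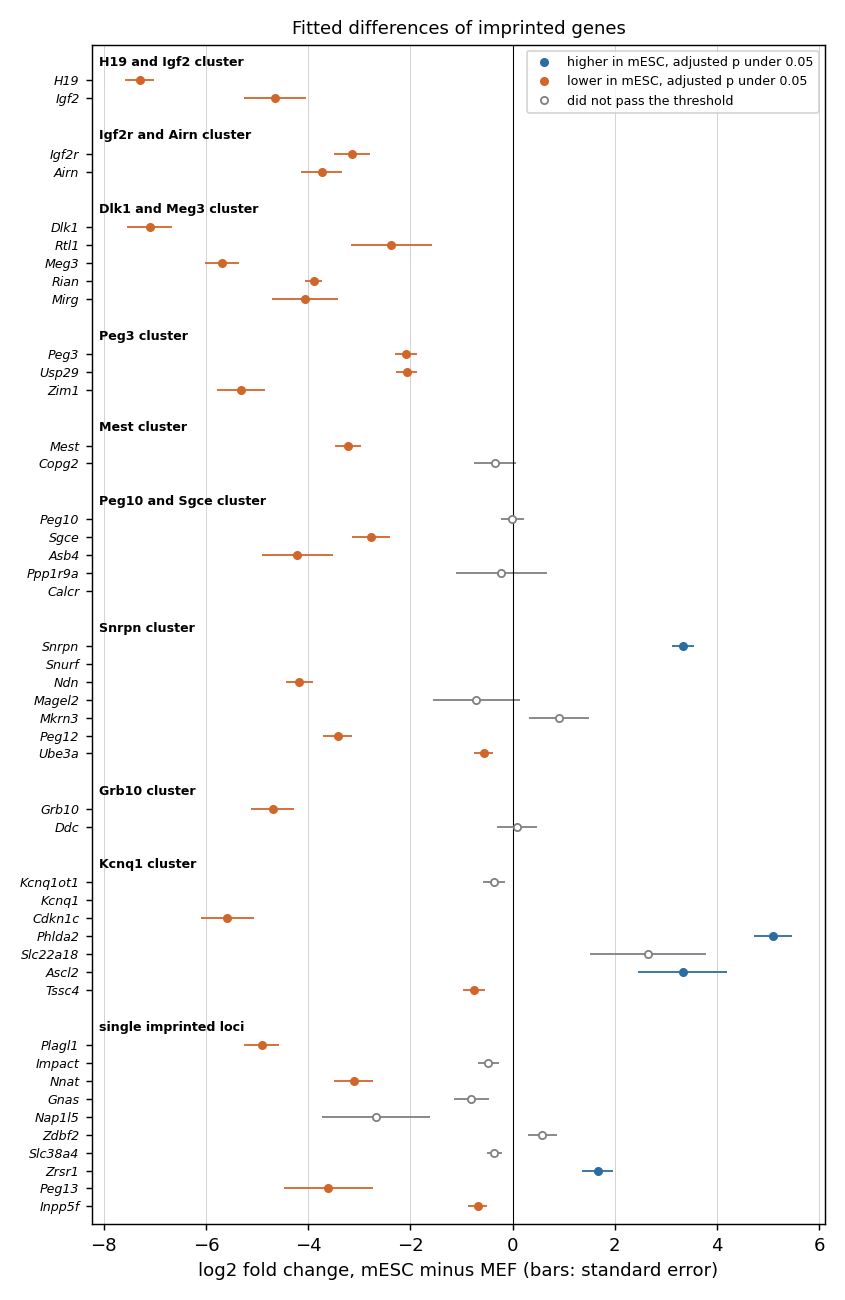
Fitted log2 fold change of each tested imprinted gene, mESC minus MEF, with bars of 1 standard error, by cluster (orange, called lower in mESCs; blue, called higher; open grey, did not pass the threshold). Calcr, Snurf and Kcnq1 were not tested and have no point. The values run from -7.29 for H19 to 5.09 for Phlda2.

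The Snrpn cluster on chromosome 7, which corresponds to the Prader-Willi and Angelman region of humans, held genes that moved in opposite directions. Snrpn (chr7:59982495-60140219, minus strand), which encodes a Sm protein of the spliceosome, was at 11.9, 8.39, 9.45 and 8.59 CPM in MEFs and 84.1, 120.0 and 87.8 CPM in mESCs. Its mean was 10.15-fold higher in mESCs, with a log2 fold change of 3.34 (SE 0.21, adjusted p = 5.04e-07). Ndn, a MAGE family protein of neurons and mesenchyme that is expressed from the same paternal copy, went from 123, 159, 112 and 166 CPM in MEFs to 7.37, 10.45 and 5.43 CPM in mESCs. Ndn had a log2 fold change of -4.17 (SE 0.27, adjusted p = 7.28e-07). Peg12, a paternally expressed retrogene related to the Frat genes of WNT signalling, was at 136.5, 119, 186 and 89.85 CPM in MEFs and 15.2, 10.6 and 11.3 CPM in mESCs. It fell with a log2 fold change of -3.42 (SE 0.28, adjusted p = 3.42e-06), and no mESC library of Ndn or Peg12 reached a MEF library. Magel2 and Mkrn3, further paternally expressed genes between them, were low in all libraries, with 3 to 14 counts for Magel2, and did not pass the test (adjusted p = 0.533 and 0.234 in edgeR). Mkrn3 was at 4.77, 5.68 and 1.06 CPM in mESC libraries A to C, and C was lowest.

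Snurf had 0 counts in all 7 libraries, and a count of 0 allows up to 3 counts in each. All of its exonic bases lie within exons of Snrpn and of the read-through gene Gm38393, so a read there belongs to more than 1 gene. Gm38393, which shares 27.3% of the exonic bases of Snrpn, had 18, 22, 19 and 10 counts in MEFs and 103, 246 and 44 in mESCs. Ube3a, a ubiquitin ligase that is imprinted in neurons, was at 293, 227, 172 and 195 CPM in MEFs and 137, 168 and 145 CPM in mESCs. Its log2 fold change of -0.57 (SE 0.19, adjusted p = 0.031) had an adjusted p close to the threshold. Without MEF library A or B or mESC library A or C edgeR's adjusted p was 0.0711, 0.0564, 0.105 and 0.0832. The antisense RNA Snhg14, which overlaps 8.74% of the exonic bases of Ube3a and silences its paternal copy in neurons, had 93, 105, 60 and 68 counts in MEFs and 405, 695 and 304 in mESCs.

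Grb10 (chr11:11930508-12038683, minus strand), an adaptor that dampens insulin and IGF receptor signalling, fell in mESCs. It was at 1016, 1093, 803 and 861 CPM in MEF libraries and 46.5, 13.4 and 49.4 CPM in mESC libraries, with mESC library B below the other two. The log2 fold change was -4.69 (SE 0.42, adjusted p = 6.89e-06). Its neighbour Ddc, the aromatic amino acid decarboxylase with an imprint known from the heart, was at 8.25, 5.75, 13.1 and 5.725 CPM in MEFs and 8.67, 5.57 and 11.9 CPM in mESCs (log2 fold change 0.09, SE 0.39), and the groups overlapped. The sign of Ddc turned without MEF library B (-0.06), MEF library D (-0.05) or mESC library C (-0.21), and its adjusted p was 0.874 in edgeR with all libraries.

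The Kcnq1 cluster held both the largest rise and one of the larger falls of the 42 genes tested. Cdkn1c (chr7:143458339-143461050, minus strand), the maternally expressed cell cycle inhibitor p57, was at 706, 2178, 857 and 2318 CPM in MEFs and 31.4, 20.3 and 43.3 CPM in mESCs. Cdkn1c fell with a log2 fold change of -5.58 (SE 0.53, adjusted p = 1.05e-05), and MEF libraries B and D were well above A and C. Phlda2 (chr7:143501545-143503150, minus strand), a maternally expressed pleckstrin homology protein of the same cluster that restrains placental growth, was at 3.26, 3.24, 3.05 and 4.61 CPM in MEFs and 146.5, 54.5 and 159.7 CPM in mESCs. Its mean was 34.0-fold higher in mESCs, with a log2 fold change of 5.09 (SE 0.37, adjusted p = 1.65e-06), although mESC library B had the lowest of the 3 values. Ascl2, a helix-loop-helix factor of trophoblast and a WNT target, had 0, 3, 12 and 1 counts in MEFs and 45, 66 and 39 in mESCs. Ascl2 rose with a log2 fold change of 3.33 (SE 0.88, adjusted p = 0.0092), which was 4.99 without MEF library C. The 7 trophoblast markers summed to 21.5 to 37.2 CPM in MEFs and 22.1 to 31.15 CPM in mESCs, and Tpbpa was at 0 in all MEF libraries and in mESC libraries A and B. Within this sum Eomes, a T-box factor of trophoblast and of early mesoderm and endoderm, rose from 14, 29, 12 and 17 counts in MEFs to 60, 81 and 118 counts in mESCs (log2 fold change 2.08, SE 0.43, adjusted p = 0.00237). Gata3 fell, from a mean of 25.0 CPM in MEFs to 13.9 CPM in mESCs (log2 fold change -0.85, SE 0.25, adjusted p = 0.018), and the other 5 markers were not tested. The part of such cells in the levels of Phlda2 and Ascl2 was not tested.

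Of the remaining genes of the Kcnq1 cluster, Tssc4 fell, Slc22a18 and Kcnq1ot1 did not pass the test and Kcnq1 was near the floor. Slc22a18, an organic cation transporter-like gene, had 2, 0, 0 and 14 counts in MEFs and 53, 35 and 9 in mESCs. The 14 counts of MEF library D lay above the 9 counts of mESC library C, and the log2 fold change was 2.65 (SE 1.13, adjusted p = 0.0761). Kcnq1ot1, the paternally expressed antisense RNA that silences the cluster in cis, was at 96.4, 57.6, 60.5 and 73.0 CPM in MEFs and 49.1, 68.2 and 51.1 CPM in mESCs and did not pass the test (adjusted p = 0.2 in edgeR). Kcnq1 itself, a potassium channel, had at most 6 counts in a library and was not tested. Tssc4 was at 61.3, 47.45, 75.8 and 60.6 CPM in MEFs and 45.7, 33.9 and 29.7 CPM in mESCs, a log2 fold change of -0.75 (SE 0.21, adjusted p = 0.014). Without mESC library B or C its adjusted p was 0.0512 and 0.0611 in edgeR.

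Among the 10 single imprinted loci, 4 genes fell (Plagl1, Nnat, Peg13 and Inpp5f), Zrsr1 rose and 5 did not pass the test. Plagl1, a zinc finger factor that restrains proliferation, was at 91.3, 215, 98.2 and 147 CPM in MEFs and 4.335, 4.77 and 4.60 CPM in mESCs. It had the narrowest mESC spread of the genes that fell, and its log2 fold change was -4.91 (SE 0.35, adjusted p = 1.36e-06). Nnat, a proteolipid of brain and fat, was at 33.3, 34.9, 36.3 and 32.6 CPM in MEFs and 6.83, 2.95 and 2.01 CPM in mESCs (log2 fold change -3.11, SE 0.38, adjusted p = 6.13e-05, and -3.78 without mESC library A). Here the spread was narrow in MEFs and wide in mESCs. Zrsr1, a retrogene related to a splicing factor, was at 7.10, 9.95, 9.45 and 9.22 CPM in MEFs and 42.05, 18.3 and 24.5 CPM in mESCs. Zrsr1 rose with a log2 fold change of 1.67 (SE 0.30, adjusted p = 0.000974), and 9.17% of its exonic bases overlap Commd1 on the opposite strand.

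The non-coding RNA Peg13 had 30, 39, 10 and 15 counts in MEFs and 5, 1 and 0 in mESCs and fell (log2 fold change -3.60, SE 0.87, adjusted p = 0.00576). Without mESC library A the log2 fold change of Peg13 was -5.31. Inpp5f, a lipid phosphatase with an imprinted brain transcript, went from 36.9 CPM ± 4.16 (SD, n = 4) in MEFs to 23.0 CPM ± 3.30 (SD, n = 3) in mESCs. This gave a log2 fold change of -0.68 (SE 0.19, adjusted p = 0.0124), and an adjusted p of 0.0585 without mESC library A. Of the genes that did not pass, Slc38a4, an amino acid transporter, and Gnas, the stimulatory G protein subunit, had mESC libraries all below the MEF libraries. Slc38a4 was at 108, 91.3, 106 and 86.0 CPM in MEFs and 75.3, 81.9 and 71.5 CPM in mESCs, with an adjusted p of 0.0737 in edgeR. Gnas was at 7.96, 14.6, 7.47 and 9.22 CPM in MEFs and 4.99, 7.04 and 4.84 CPM in mESCs, with an adjusted p of 0.0784. Without MEF library D the adjusted p of Slc38a4 was 0.0465. The last 500 exonic bases of Gnas are shared to 93.6% with Gm20721 on the opposite strand, which had 0 counts. Without the strand setting, the levels of Gnas may also leave out reads from its end.

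Impact, a regulator of translation, was at 119, 133, 147 and 109 CPM in MEFs and 97.4, 114.5 and 62.3 CPM in mESCs and did not pass (adjusted p = 0.0904; 0.0385 without mESC library B). Zdbf2, a paternally expressed zinc finger gene, was at 54.7, 40.3, 36.4 and 32.8 CPM in MEFs and 67.4, 82.15 and 34.9 CPM in mESCs. The groups overlapped only through mESC library C, and edgeR's adjusted p of Zdbf2 was 0.115 with all libraries and 0.0141 without that one. Nap1l5, a retrogene of the nucleosome assembly family, had 26, 12, 3 and 29 counts in MEFs and 0, 8 and 1 in mESCs (adjusted p = 0.0596). It was called lower without MEF library C (0.0296) and without mESC library B (0.0170), and by DESeq2 (0.0372).

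**Figure D3:**
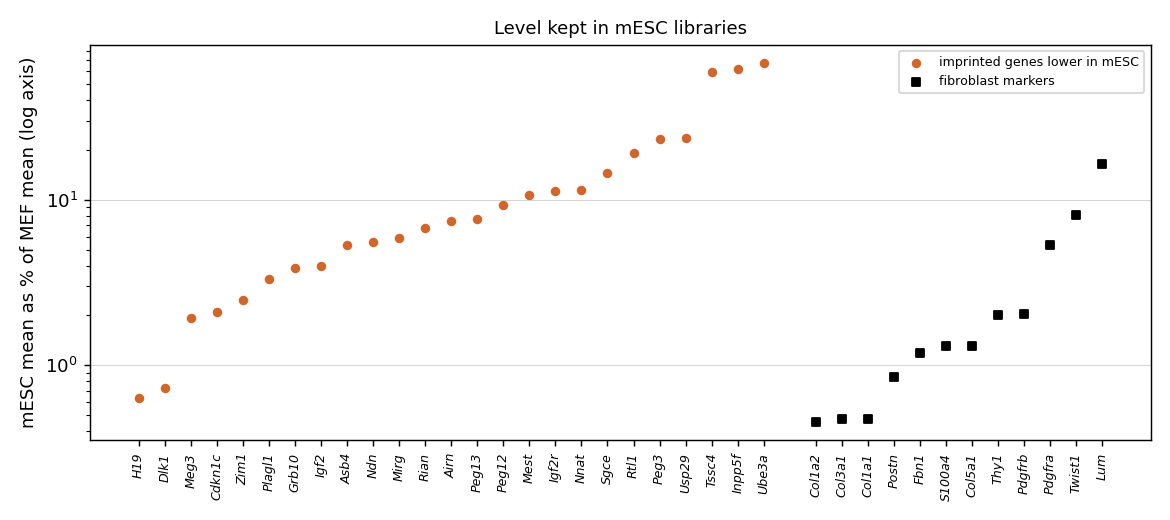
Mean mESC level as a percentage of the mean MEF level on a log axis, for the 25 imprinted genes called lower in mESCs (orange circles) and for 12 fibroblast markers (black squares), each ordered by value. H19 kept 0.637% and Ube3a 67.6%, while the markers ran from 0.4515% for Col1a2 to 16.6% for Lum.

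The genes that fell differed in how much RNA was left in mESCs. H19 and Dlk1 kept under 1% of their MEF means, whereas Peg3 and Usp29 kept 23.5% and 23.8% and Tssc4, Inpp5f and Ube3a kept 59.5%, 62.3% and 67.6%. The fibroblast markers kept 0.589% of their summed MEF level, from 0.4515% for Col1a2 to 16.6% for Lum. Above the level of Lum stood Rtl1 (19.1%), Peg3, Usp29, Tssc4, Inpp5f and Ube3a. Thy1, a surface marker of fibroblasts, was at 7.80, 7.27 and 6.25 CPM in mESC libraries A to C and at 354, 325, 385.5 and 344 CPM in MEFs. For its chromatin libraries the study sorted THY1-, SSEA1+ and EPCAM+ mESCs, a gate that removes THY1+ fibroblasts, and whether the RNA came from sorted cells is not given in the sources used here. The part of remaining fibroblasts in these mESC levels was not tested.

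The spread between libraries of one cell type was described by the SD of log2CPM, with no test. Among members with a mean of at least 10 counts, the median SD was 0.43 in MEFs (39 genes) and 0.45 in mESCs (35 genes). The same medians over all genes were 0.35 and 0.30. Without mESC library B the mESC median of the members was 0.30, and without A or C it was 0.36 and 0.35. In MEFs it ran from 0.37 to 0.40 as each library was left out. A median SD is lower over fewer libraries by construction. Medians of all genes were not taken for these subsets, so these values cannot be set against 0.35 and 0.30. Above the 90th percentile of all genes were 4 of 39 members in MEFs, near the share set by the percentile itself. With a prior count of 0.5 there were 3. The 4 genes were Ppp1r9a, Nap1l5, Rtl1 and Cdkn1c, with SDs of 2.01, 1.18, 1.16 and 0.89. The percentile was not matched for level, and Nap1l5 and Rtl1 had 3 to 29 and 11 to 65 counts. In mESCs 6 of 35 members lay above it, namely Mkrn3, Slc22a18, Grb10, Igf2, Phlda2 and Nnat, with SDs from 0.85 to 1.20. This is more than the share set by the percentile, but the percentile was not matched for level here either. Mkrn3 had 9 to 50 counts, Slc22a18 9 to 53, Igf2 6 to 22 and Nnat 17 to 63. Grb10 and Phlda2 had more, at 118 to 429 and 480 to 1354 counts.

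**Figure D4:**
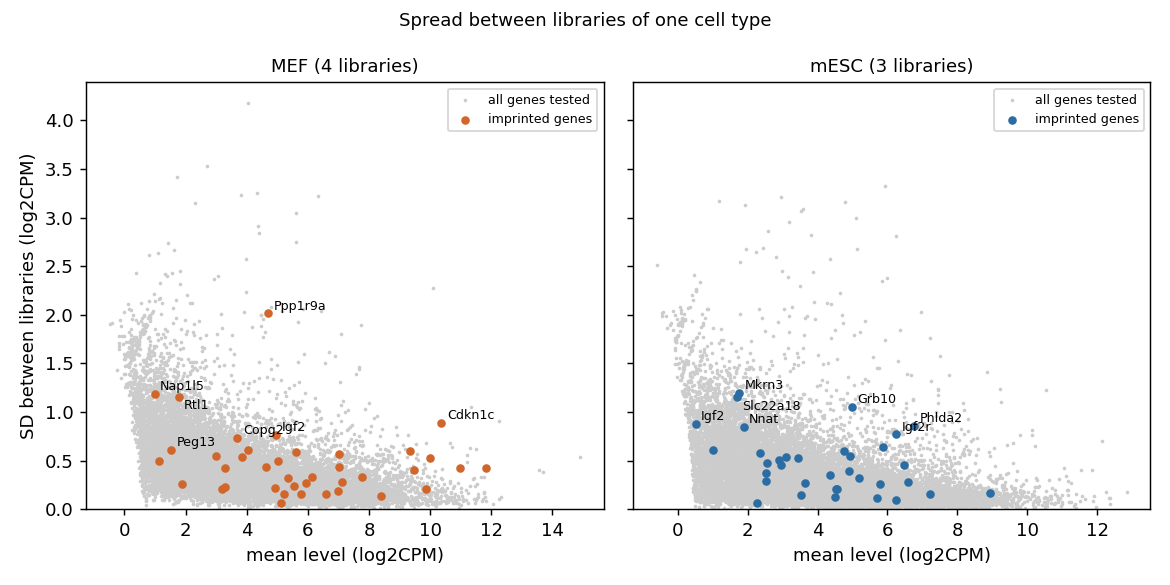
Standard deviation of log2CPM between libraries against the mean log2CPM, for the 4 MEF libraries (left) and the 3 mESC libraries (right), with all tested genes with a mean of at least 10 counts in grey and imprinted genes in colour. The 7 members with the highest SD are named in each panel. Ppp1r9a stands out in MEFs with an SD of 2.01, and Mkrn3 and Slc22a18 have the highest SDs of the members in mESCs, at 1.20 and 1.15.

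These 6 genes did not follow one order of mESC libraries. Grb10 and Phlda2 were lowest in library B, with 46.5, 13.4 and 49.4 CPM for Grb10. Mkrn3, Slc22a18 and Nnat were lowest in library C. Igf2 was highest in C with 6, 8 and 22 counts in libraries A to C. Of members with a lower SD, picked after their values were seen, Zrsr1 was lowest in B and Igf2r, Zdbf2 and Impact in C. The primitive endoderm markers summed to 39.7, 25.2 and 13.45 CPM in mESC libraries A to C and were lowest in C too. Most of this sum was Gata6, at 26.0, 15.45 and 8.85 CPM, which MEFs also held at a mean of 30.1 CPM. Sox17 was at 5.53, 4.66 and 1.06 CPM and Sox7 at 3.79, 2.27 and 0.708 CPM. Foxa2 was at 2.28, 2.045 and 0.472 CPM, so that all of these were lowest in C. Sox17 and Foxa2 had 0 counts in every MEF library. Gata4 was highest in C, at 1.95, 0.795 and 2.24 CPM, and Afp had at most 1 count in an mESC library. The part of such cells, and that of Y-linked levels, in the spread of these genes was not tested.

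**Figure D5:**
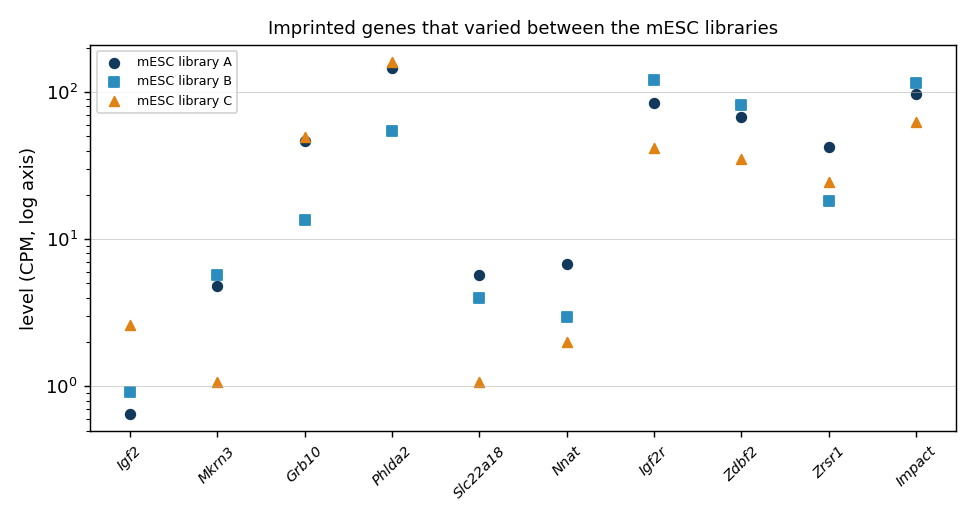
Level in CPM, on a log axis, of 10 imprinted genes in mESC libraries A (dark circles), B (blue squares) and C (orange triangles), picked after their values were seen. Grb10, Phlda2 and Zrsr1 have their lowest point in B, while Mkrn3, Slc22a18, Nnat, Igf2r, Zdbf2 and Impact have it in C.

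In MEFs the libraries rich in Y-linked RNA, B and D, both lay above A and C in 17 of 39 members (43.6%) and both below in 6 (15.4%). For all genes these shares were 23.3% and 22.3%. The 17 genes were H19, Igf2, Airn, Dlk1, Rtl1, Rian, Mirg, Peg3, Usp29, Zim1, Copg2, Sgce, Ndn, Mkrn3, Cdkn1c, Plagl1 and Gnas. The 6 genes were Asb4, Snrpn, Peg12, Ddc, Tssc4 and Slc38a4. The summed fibroblast markers were also higher in B and D, with 23440, 40180, 27540 and 31580 CPM in MEF libraries A to D. Not every marker followed the sum. Col1a1 was lowest in D, at 10420, 17860, 12440 and 9422 CPM in libraries A to D. Thy1 (354, 325, 385.5 and 344 CPM) and S100a4 (236, 156, 209 and 153 CPM) were lower in B and D than in A and C. The other fibroblast markers were higher in both B and D. In mESCs library C lay above A and B in 10 of 35 members (28.6%) and below in 14 (40.0%), against 33.2% and 34.0% of all genes. These splits were chosen after seeing the data and were not tested, and sex, culture and library cannot be told apart in them.

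Of a further list of imprinted genes outside the 45, 40 were found in the count table. Unlike the 45, these were not divided by parental copy or by whether the imprint is limited to some tissues. Of the 30 tested, 12 fell (40.0%) and 3 rose (10.0%), against 25.0% and 22.8% of all genes tested. The median log2 fold change was -0.48, also with Tfpi2 at its bound, against 0.04 over all genes. The genes that rose were Cobl, an actin nucleator next to Grb10, Jade1, a subunit of histone acetyltransferase complexes, and Gab1, an adaptor of growth factor receptors. Cobl was at 4.03, 4.67, 3.05 and 3.50 CPM in MEFs and 112, 138 and 116 CPM in mESCs, a log2 fold change of 4.98 (SE 0.20, adjusted p = 3.42e-08). Those of Jade1 and Gab1 were 2.15 and 1.74 (SE 0.21 and 0.17). Dcn, the matrix proteoglycan decorin, fell by 7.40 on the log2 scale (SE 0.70, adjusted p = 1.11e-05), and Osbpl5 and Tnfrsf23 of the Kcnq1 region fell by 4.69 and 4.01. Tfpi2, a protease inhibitor near Peg10, was at 9.40, 8.15, 10.8 and 14.3 CPM in MEFs and 0 counts in all mESC libraries, at least 31.4-fold lower against a floor of 3 counts per library. Htr2a, a serotonin receptor, had 133 counts over the MEF libraries and 1 over the mESC libraries, a ratio of 111.5 with an exact 95% interval of 19.7 to 4436 for counting error only.

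Of 15 genes that set or maintain imprints, 14 were tested, 8 rose, Dnmt3a fell and the median log2 fold change was 0.87. Thus 57.1% were called higher and 7.14% lower, against 22.8% and 25.0% of all genes tested, whose median was 0.04. Zfp57, the zinc finger protein that holds methylation at imprinted control regions, was at 30.3, 28.4, 17.8 and 16.9 CPM in MEFs and 83.35, 92.3 and 78.2 CPM in mESCs (log2 fold change 1.85, SE 0.23, adjusted p = 7.43e-05). Trim28, its corepressor, was at 134, 141, 199.8 and 180.2 CPM in MEFs and 444, 376 and 378 CPM in mESCs (log2 fold change 1.29, SE 0.17, adjusted p = 0.000102). Dnmt3l, Dppa3 and Dnmt3b, which are genes of germ cells and early embryos, rose by 6.80, 5.98 and 4.32 on the log2 scale. Dnmt3a, a methyltransferase that writes new methylation, was at 166, 254, 164.5 and 189 CPM in MEFs and 111, 127 and 114 CPM in mESCs, a log2 fold change of -0.72 (SE 0.18, adjusted p = 0.00688). Its call was lost with library size only and in the test against a fold change of 2. Dnmt1, which copies methylation at replication, did not pass the test (adjusted p = 0.593 in edgeR).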

How the data were processed

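RNA-seq libraries with a 3′ bias and molecular identifiers were made from MEFs (n = 4) and mESCs (n = 3). The authors aligned reads to mm10 with STAR, collapsed molecular identifiers, used featureCounts to tally reads that mapped once to an exon, and deposited whole-number counts per gene without normalization. The version of STAR differs between the sources, and the strand setting is not given in the sources used here. Reads come mostly from transcript ends, so levels were not divided by length and are not compared between genes. Column names give the cell type but not the sample, so libraries carry letters. Counts were tested with edgeR 4.0.16 (limma 3.58.1, R 4.3.3) by the quasi-likelihood test, with TMM, filterByExpr, no covariates and Benjamini-Hochberg adjustment over 16580 genes at 0.05; DESeq2 1.42.0 was an alternative. log2CPM used a prior count of 2. Coordinates of exons are from GENCODE M21 (53362 of 55484 symbols matched). The code was tested on simulated data. All 45 members are named, of the other lists the 5 genes with the largest change in each direction, and other genes where exons overlap a member. Outside this rule, Dnmt1 and the single marker, Xist and Y-linked genes given beside sums were named after their values were seen. The same holds for host genes of members and for H13 and Mcts2. Members and lists were chosen with earlier results of these data known. No column of values was left unused, and libraries of one cell type differed beyond sampling noise.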

Additional observations from a re-analysis of the deposited data

Results flagged for a closer look

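In 44 groups of 4 MEF libraries, Dixon's test marked 3 in which 1 library stood far from the others, and chance marks about 5% of groups. Ppp1r9a reached 198.1 CPM (1653 counts) in MEF library B, where the next highest library had 17.75 CPM. Phlda2 was at 4.61 CPM (29 counts) in MEF library D, above 3.26 CPM in the next. Slc22a18 was at 2.23 CPM (14 counts) in the same MEF library D, where the next had 0.192 CPM and 2 counts.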

How the results depend on the processing

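Of 533 values of the 42 tested genes under 13 alternatives, 495 kept their direction and their side of the threshold. Of the 29 called genes, 25 kept their call under every alternative run, and the exceptions were Rtl1, Ube3a, Tssc4 and Inpp5f. Counts of imprinted genes stayed between 4 and 6 higher and between 21 and 27 lower, the latter with the test against a fold change of 2 and with no filter beyond 1 count. Slc22a18, Impact and Nap1l5, tested in the main fit too, were called with no filter beyond 1 count (adjusted p = 0.00224, 0.0442 and 0.0119 in edgeR). That setting lowered the adjusted p of many genes at nearly the same fold change. For Cdkn1c edgeR's adjusted p went from 1.05e-05 to 4.51e-190, at log2 fold changes of -5.58 and -5.61. Calls made only under that setting are therefore weak, and the cause of the lower p-values was not tested. The sign of Peg10 turned with DESeq2's size factors (0.0114) and with library size only (0.28) and ran from -0.25 to 0.16 as each library was left out. That of Ppp1r9a was 0.0736 with library size only and ran from -0.59 to 1.89, the latter without MEF library B. Ddc ran from -0.21 to 0.39. Of the imprint maintenance factors, 4 rose and 0 fell in the test against a fold change of 2, which is stricter by construction, and 11 rose and 0 fell with library size only, where the cause was not tested. As each mESC library was left out, the median SD of imprinted genes in mESCs ran from 0.30 to 0.36, lower by construction over fewer libraries. The share of counts in MEFs was 0.823% without H19. No paired analysis was possible because the columns carry no replicate number stated to be that of a sample. With 3 and 4 libraries, genes with few counts, such as Magel2, Slc22a18, Nap1l5 and Peg13, are limited by counting error.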

Other observations

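Several imprinted genes lie within another gene, mostly in an intron, although 9.17% of the exonic bases of Zrsr1 overlap exons of Commd1. These pairs of gene and host, picked after their values were seen, did not share 1 direction. Zrsr1 rose while its host Commd1 was at 64.7 CPM in MEFs and 59.3 CPM in mESCs and did not pass edgeR's test (adjusted p = 0.616). Nnat fell by 3.11 on the log2 scale and its host Blcap, a small membrane protein, fell by 0.77 (SE 0.22, adjusted p = 0.0156). Blcap was at 18.5, 26.7, 22.1 and 22.7 CPM in MEF libraries A to D and 12.7, 11.9 and 15.1 CPM in mESC libraries A to C, without overlap. Peg13 fell, and its host Trappc9 was at 6.36 and 6.59 CPM (adjusted p = 0.903). H13, a signal peptide peptidase, fell from 112, 93.95, 139 and 113 CPM in MEFs to 18.1, 11.6 and 21.6 CPM in mESCs (log2 fold change -2.74, SE 0.24, adjusted p = 6.8e-06). The retrogene Mcts2 within it was at 23.9, 19.65, 18.75 and 13.7 CPM in MEFs and 32.4, 30.8 and 21.35 CPM in mESCs and did not pass the test (adjusted p = 0.0795). Differences between a gene and its host were not tested.

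The imprinted windows held a median of 12 CpG dinucleotides, against 7 over all promoter windows of the same length.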
